A study of Mus musculus with 3 samples.

Results

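Dchs1, Fat4 and 8 further genes of planar cell polarity and mitral valve prolapse (Flna, Lix1l, Dzip1, Vangl1, Vangl2, Celsr1, Prickle1 and Ror2) were followed across the nuclei of the newborn mouse aortic valve region. They were chosen by name, as 10 of the 36167 features measured, with earlier results of these data known. The tissue is labelled as aortic valve structure from mice at postnatal day 1 that the labels name B6.Cg-Scx<tm1.1(EGFP)Skom, with the number RBRC11098. They carry an EGFP allele at Scx, of which the zygosity is not stated. Each of the 3 samples is a pool of 22 to 24 aortic roots, so animals cannot be told apart within a pool, and all 3 pools carry the same allele, age and tissue label. Nuclear RNA was read with 10x Genomics Multiome, through unique molecular identifiers (UMIs) that mark each captured molecule. The chromatin part of that assay was not analysed here. With 1 group of pools there is no treatment or genotype to compare, and the comparisons are between classes of nuclei taken from the same pools.

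Dchs1 and Fat4 are very large protocadherins that bind each other across the border of neighbouring cells, with Dchs1 as the ligand and Fat4 as the receptor, and the pair is known to orient cells within a tissue. A separate set of core polarity proteins, which includes the Vangl, Celsr and Prickle proteins, builds asymmetric complexes at cell borders, and the receptor Ror2 answers to the ligand Wnt5a. In people, variants of DCHS1, FLNA and DZIP1 are known in mitral valve prolapse, and the LIX1L protein is known to bind the inner part of DCHS1.

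The deposited matrices held 21140 nuclei and 96513814 UMIs, and 12915 nuclei with 69389451 UMIs were analysed, 6313, 3014 and 3588 in pools 1, 2 and 3, with median depths of 4299, 4767 and 3335 UMIs. Nuclei with over 5% of UMIs from mitochondrial genes (28.6%, 41.8% and 14.1% of the deposited nuclei of pools 1, 2 and 3) were left out, as were nuclei under 1000 UMIs and those with the highest doublet scores. Between 44 and 99 barcodes were shared by each pair of pools. The nuclei fell into 29 clusters, which were given "-like" class names from marker genes, and 2 clusters with 781 nuclei stayed unnamed. The 10 members were kept out of the clustering, so their levels did not shape the classes. The valve interstitial-like class, named for the mesenchymal cells of the leaflet, had 1425 nuclei. In each of its clusters 10 of 13 markers passed the rule for naming, and all 13 had a UMI somewhere in the class. The 13 markers summed to 10201 CPM (UMIs of a gene per 1000000 UMIs of the pool and class), against 5252 CPM in fibroblast-like and 1277 CPM in endothelial-like nuclei. Its sum of fibroblast markers was 4486 CPM, so the boundary of these mesenchymal classes is a matter of degree. In summed counts, more nuclei with a transcript and more transcripts per nucleus cannot be told apart.

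All 10 members passed the filter on low counts. The analysed nuclei held between 1005 UMIs (Celsr1) and 35852 UMIs (Prickle1) of a member, which makes the levels of Celsr1, Vangl2, Dzip1 (1548), Dchs1 (1608) and Vangl1 (1934) the least precise. By mean level over pools, 4 members stood highest in the valve interstitial-like class (Fat4, Lix1l, Prickle1 and Ror2), 3 in the lymphatic endothelial-like class (Dchs1, Vangl1 and Celsr1), and 1 each in the endothelial-like (Vangl2), pericyte-like (Dzip1) and smooth muscle-like (Flna) classes. The order of levels below is given within each gene; levels are not compared between genes, since counts of long and short transcripts are not on 1 scale.

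**Figure D1:**
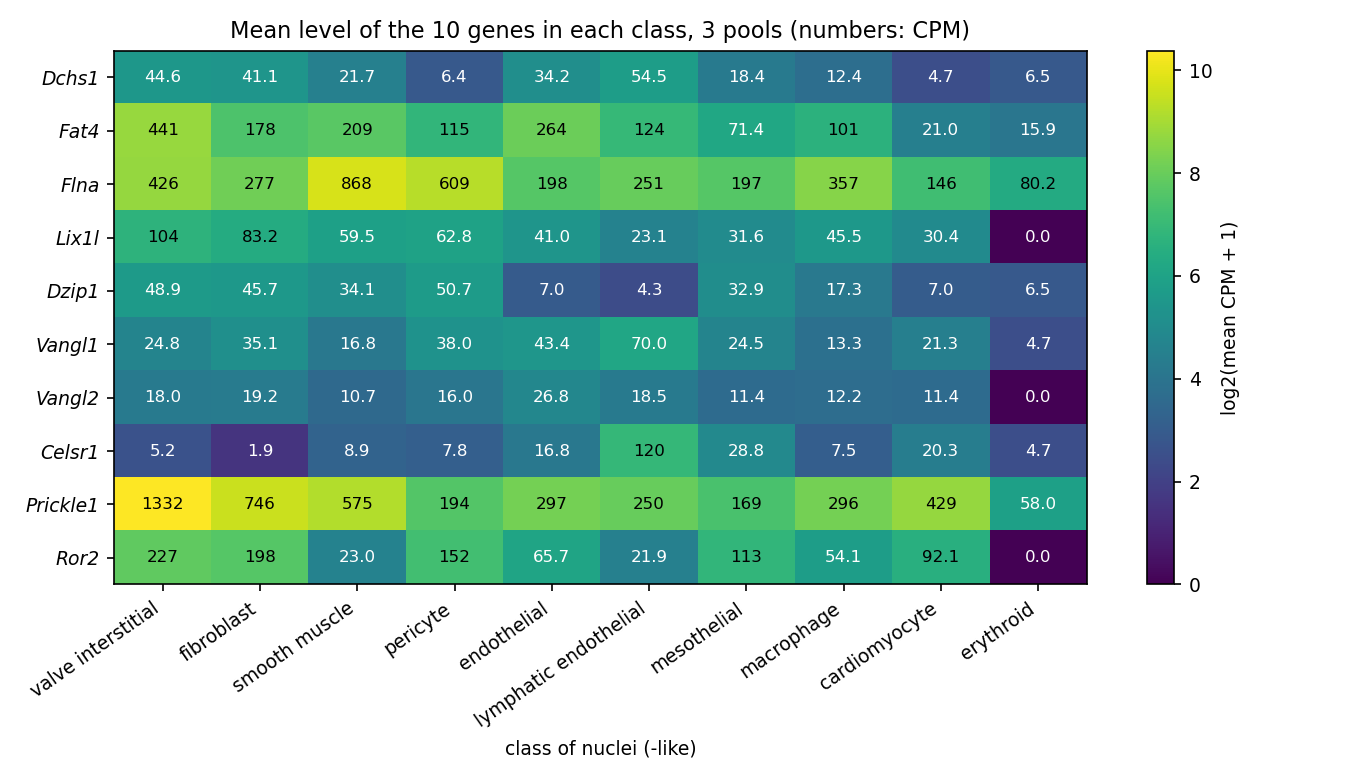
Mean level of each of the 10 genes (rows) in each class of nuclei (columns), as CPM printed in each cell and as colour on a log2(CPM + 1) scale, each the mean of 3 pools. Fat4 at 441 CPM, Lix1l at 103.8 CPM, Prickle1 at 1332 CPM and Ror2 at 227 CPM are highest in the valve interstitial-like column, and Celsr1 at 120.3 CPM in the lymphatic endothelial-like column.

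Since Fat4, Lix1l, Prickle1 and Ror2 had their highest mean level in the valve interstitial-like class, the 250 bases upstream of their annotated start are shown, from RefSeq on GRCm38.p6 and written 5′ to 3′ on the gene's strand. The capitals mark the GC box (GGGCGG or its complement CCGCCC, the site of Sp factors) and the TEAD motif (GGAATG or CATTCC, the site through which the Hippo pathway acts), both searched on both strands. The windows lie at chr3:38886690-38886939 on the plus strand for Fat4, chr3:96600883-96601132 on the plus strand for Lix1l, chr15:93595903-93596152 on the minus strand for Prickle1 (the outermost of its annotated starts) and chr13:53286125-53286374 on the minus strand for Ror2.
Fat4: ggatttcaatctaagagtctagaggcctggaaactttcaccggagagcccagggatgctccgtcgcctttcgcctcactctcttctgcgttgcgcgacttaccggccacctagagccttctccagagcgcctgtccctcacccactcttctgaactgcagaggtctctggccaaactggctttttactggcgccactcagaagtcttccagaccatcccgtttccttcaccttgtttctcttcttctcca
Lix1l: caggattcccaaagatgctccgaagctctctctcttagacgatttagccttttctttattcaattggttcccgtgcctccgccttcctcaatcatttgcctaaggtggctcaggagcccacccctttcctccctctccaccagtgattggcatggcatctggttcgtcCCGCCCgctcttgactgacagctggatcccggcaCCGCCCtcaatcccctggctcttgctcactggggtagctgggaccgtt
Prickle1: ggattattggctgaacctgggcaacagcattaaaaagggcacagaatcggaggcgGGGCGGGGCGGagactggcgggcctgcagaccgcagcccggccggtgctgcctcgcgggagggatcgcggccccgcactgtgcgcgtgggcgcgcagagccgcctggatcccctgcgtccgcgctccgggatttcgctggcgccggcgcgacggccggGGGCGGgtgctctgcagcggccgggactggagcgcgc
Ror2: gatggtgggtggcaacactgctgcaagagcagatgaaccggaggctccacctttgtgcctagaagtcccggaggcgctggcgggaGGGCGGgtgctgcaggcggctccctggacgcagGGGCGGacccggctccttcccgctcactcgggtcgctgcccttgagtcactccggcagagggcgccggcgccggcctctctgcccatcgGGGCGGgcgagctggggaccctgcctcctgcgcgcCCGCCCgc

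The 4 windows differed in base composition. The Prickle1 window held 34 CpG dinucleotides at 74% GC and the Ror2 window 24 at 73.2%, against 11 at 54.8% for Fat4 and 10 at 56.4% for Lix1l, where the median of all 32851 windows of this length was 6 CpG at 52.4% GC. GC boxes, held by 32.7% of all windows, were found 4 times in Ror2, 3 times in Prickle1, where overlapping matches are counted separately, and 2 times in Lix1l. The Fat4 window held none of the 4 motifs searched, which besides these were the E-box CAGCTG (13% of all windows) and the TATA box TATAAA (12.4%). The TEAD motif, in 12.6% of all windows, was in none of the 4 windows shown; among the 7 members with an entry it occurred 1 time, upstream of Flna. A match is a description of the letters and not a bound site.

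Fat4, the receptor of the pair, was highest in valve interstitial-like nuclei at 478.5, 412 and 432 CPM in pools 1, 2 and 3 (441 CPM ± 34.0, SD, n = 3 pools, from 1314, 631 and 554 UMIs). The next class, endothelial-like, held 240.4, 267 and 283 CPM (264 CPM ± 21.6, SD, n = 3), so the groups of pools did not overlap. The step between them was 0.75 on the log2 scale (adjusted p = 0.000441, edgeR's quasi-likelihood test with pool as a block and Benjamini-Hochberg adjustment over all 14255 genes tested, or 12806 between clusters, which is the test behind every adjusted p here). Smooth muscle-like (209 CPM ± 41.3, SD, n = 3) and fibroblast-like nuclei (178 CPM ± 23.8) followed, and then the lymphatic endothelial-like, pericyte-like, macrophage-like and mesothelial-like classes at 124, 115, 101 and 71.4 CPM. No neighbouring pair from the endothelial-like down to the mesothelial-like class passed the test. A further step separated mesothelial-like from cardiomyocyte-like nuclei at 21.0 CPM ± 5.21 (SD, n = 3; log2 1.57, adjusted p = 1.66e-07, edgeR).

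After each nucleus was thinned to 1000 UMIs, 33.9% of valve interstitial-like nuclei of pool 1 held a Fat4 UMI (95% Wilson interval 30.3 to 37.7), 29.6% of pool 2 (25.1 to 34.5) and 29.6% of pool 3 (25.5 to 34.0); these intervals cover counting error only. The mean share was 31.0% ± 2.51 (SD, n = 3) there, 20.4% ± 1.35 in endothelial-like nuclei and 4.27% ± 2.17 in macrophage-like nuclei, which are given for comparison and lay above mesothelial-like and cardiomyocyte-like nuclei in CPM. Unthinned, the shares were 57.8%, 50.8% and 22.0%, at median depths of 3601 UMIs in valve interstitial-like and 3507 UMIs in macrophage-like nuclei. The thinned Fat4 share in valve interstitial-like nuclei lay above that of macrophage-like nuclei.

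Dchs1, the ligand, had another order of classes. It stood at 55.5, 57.7 and 50.3 CPM in lymphatic endothelial-like nuclei (54.5 CPM ± 3.79, SD, n = 3 pools), a class of only 118 nuclei. Valve interstitial-like nuclei held 50.6, 53.6 and 29.7 CPM (44.6 CPM ± 13, SD, n = 3, from 139, 82 and 38 UMIs), fibroblast-like nuclei 37.7, 55.0 and 30.7 CPM (41.1 CPM ± 12.5) and endothelial-like nuclei 35.7, 38.8 and 28.2 CPM (34.2 CPM ± 5.46). Each of these 4 classes overlapped the next across pools, and none of the steps between neighbours passed the test. Smooth muscle-like nuclei lay below endothelial-like ones, at 20.5, 27.3 and 17.4 CPM (log2 step 0.56, adjusted p = 0.00363, edgeR), with no overlap of pools. The lowest level was that of cardiomyocyte-like nuclei at 4.71 CPM ± 1.95 (SD, n = 3). Thinned to 1000 UMIs, 4.09% ± 1.82 (SD, n = 3) of valve interstitial-like nuclei held a Dchs1 UMI, against 0.247% ± 0.428 of macrophage-like and 0.853% of cardiomyocyte-like nuclei. Unthinned, the first 2 shares were 14.9% and 5.98%.

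**Figure D2:**
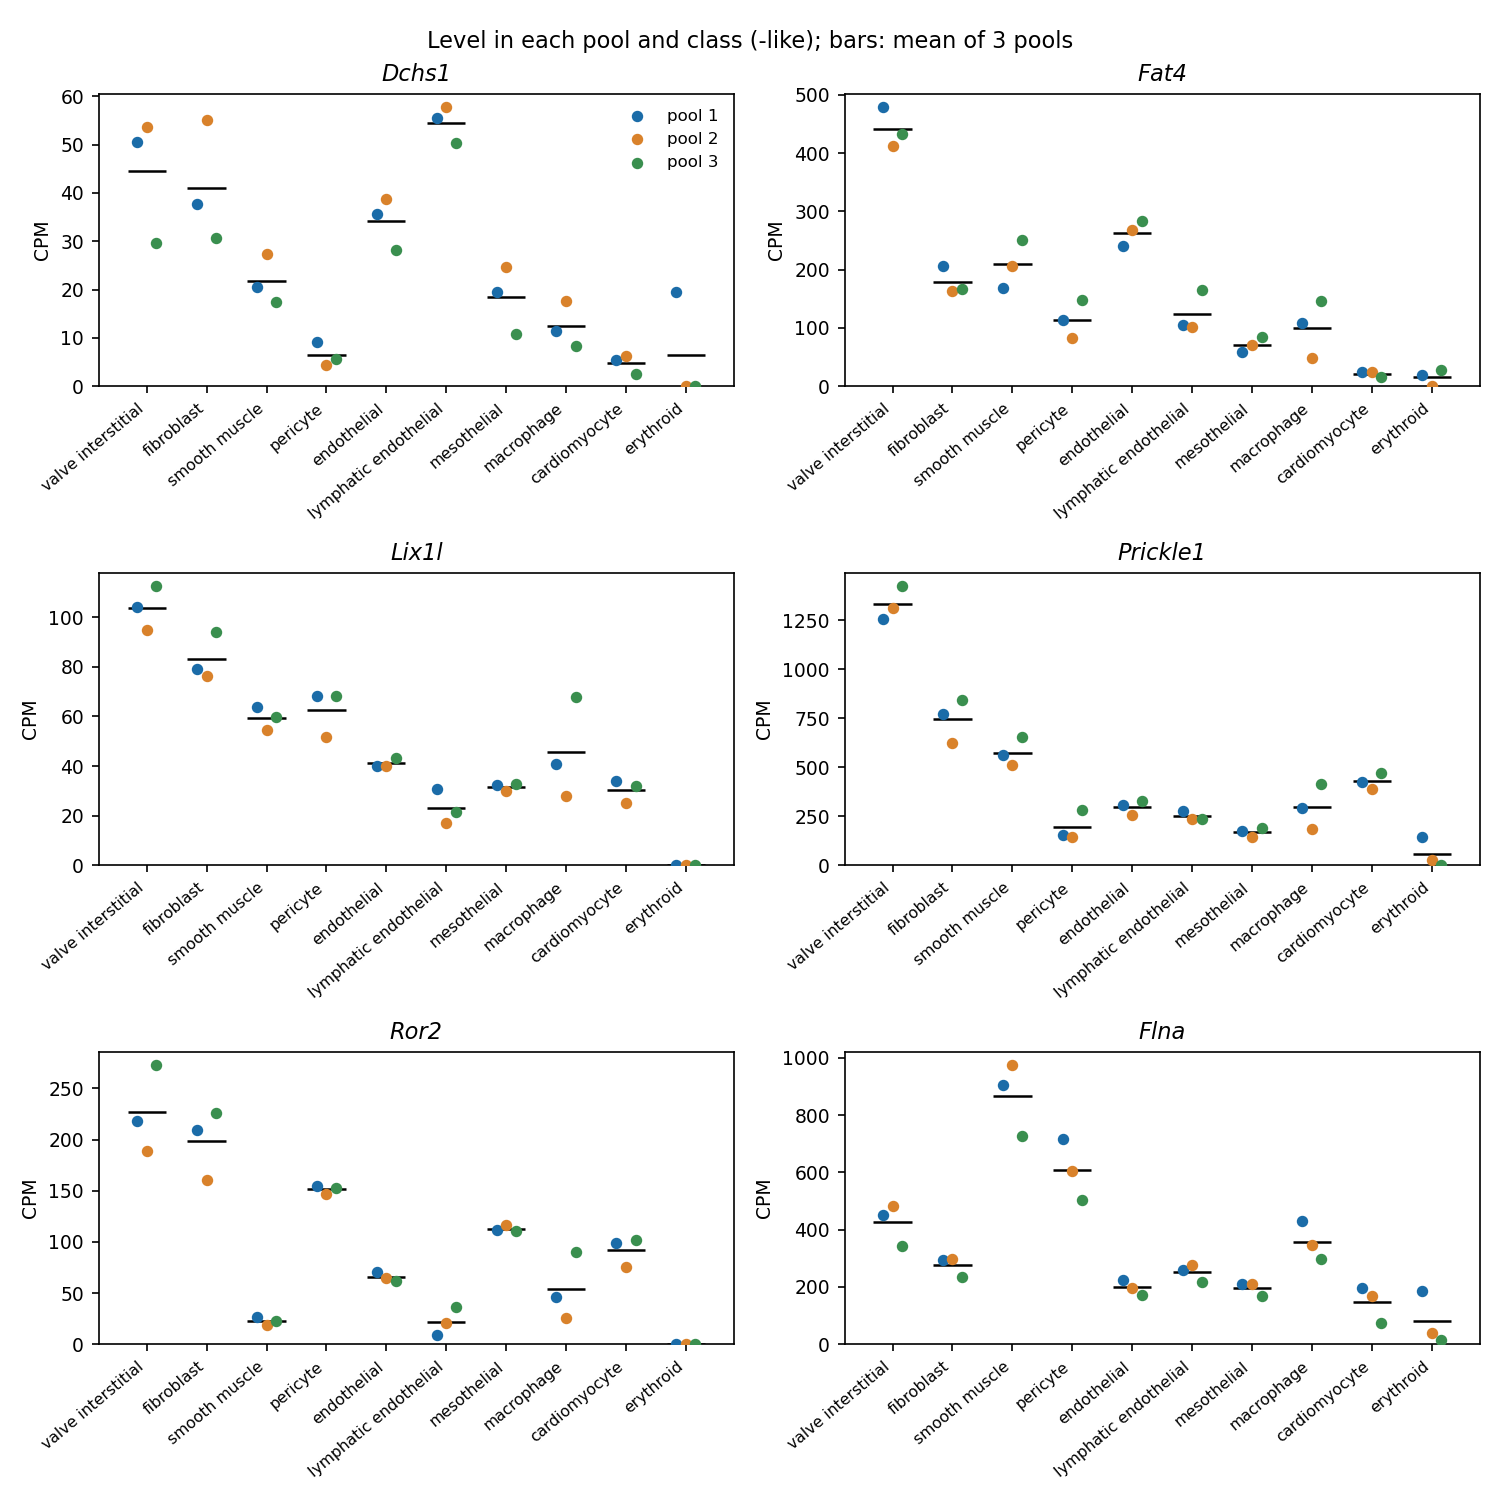
Level in CPM of Dchs1, Fat4, Lix1l, Prickle1, Ror2 and Flna in each class of nuclei; each point is 1 of the 3 pools and the horizontal bar is their mean. The 3 valve interstitial-like points of Fat4 (412 to 478.5 CPM) and Prickle1 (1259 to 1424 CPM) lie above all points of the other classes, whereas those of Dchs1 (29.7 to 53.6 CPM) overlap the fibroblast-like, endothelial-like and lymphatic endothelial-like points.

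Of 1425 valve interstitial-like nuclei thinned to 1000 UMIs, 39 held a UMI of Dchs1 alone, 430 of Fat4 alone and 19 of both, where the product of the 2 shares gives 18.3. Among 2680 endothelial-like nuclei 20 held both (17.3 from the shares), among 1318 fibroblast-like nuclei 7 (7.14) and among 3195 smooth muscle-like nuclei 13 (10.6). Unthinned, the nuclei with both were 150 in the valve interstitial-like, 230 in the endothelial-like, 81 in the fibroblast-like and 122 in the smooth muscle-like class. Among 2415 cardiomyocyte-like nuclei 4 held both (0.565 from the shares), with 17 for Dchs1 alone and 61 for Fat4 alone. The number with both lay close to the product of the shares in the first 4 classes and above it in cardiomyocyte-like nuclei, which is given without a test because nuclei of a pool are not replicates. Nuclei without a UMI may still hold the transcript, since a thinned nucleus shows few molecules of any gene.

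Lix1l, whose protein binds DCHS1, was highest in valve interstitial-like nuclei at 104, 94.7 and 112 CPM (103.8 CPM ± 8.85, SD, n = 3 pools), followed by fibroblast-like nuclei at 79.2, 76.3 and 94.2 CPM (83.2 CPM ± 9.59). The lowest valve interstitial-like pool nearly met the highest fibroblast-like pool, but within each pool the valve interstitial-like value was the higher (log2 0.38, adjusted p = 0.0169, edgeR). A second step separated smooth muscle-like nuclei at 59.5 CPM ± 4.69 (SD, n = 3) from macrophage-like nuclei at 45.5 CPM ± 20.5 (log2 0.62, adjusted p = 0.00581), but the pools overlapped, and in pool 3 the order was reversed (59.9 against 67.9 CPM). Endothelial-like nuclei held 41.0 CPM ± 1.83 and lymphatic endothelial-like nuclei 23.1 CPM ± 7.07 (SD, n = 3), and none was read in the erythroid-like class. In thinned nuclei a Lix1l UMI was held by 8.32% ± 1.35 of valve interstitial-like and 1.21% ± 0.463 of macrophage-like nuclei (SD, n = 3). Unthinned, the shares were 30.1% and 14.6%.

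Flna, the actin crosslinker filamin A, stood highest in the smooth muscle-like and pericyte-like classes. Cardiomyocyte-like nuclei were among the lowest, at 146 CPM. Smooth muscle-like nuclei held 905, 974 and 726 CPM (868 CPM ± 128, SD, n = 3 pools) and pericyte-like nuclei 716, 605 and 505 CPM (608.5 CPM ± 106), with a step of 0.68 on the log2 scale (adjusted p = 0.0140, edgeR). Valve interstitial-like nuclei followed at 451, 483 and 343 CPM (426 CPM ± 73.2, SD, n = 3), ahead of macrophage-like (357 CPM ± 68.1) and fibroblast-like nuclei (277 CPM ± 35.3). No step below the first passed the test. With thinning, 54.9% ± 4.55 of smooth muscle-like and 34.4% ± 5.82 of valve interstitial-like nuclei held a Flna UMI (SD, n = 3). The share was 19.1% of macrophage-like nuclei and 15.1% ± 6.82 of cardiomyocyte-like nuclei, at a median depth of 4893 UMIs in the latter. Unthinned, these 4 shares were 87.4%, 70.1%, 49.9% and 40.1%.

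Dzip1, which works at the base of the primary cilium, stood highest in the mesenchymal classes. The pericyte-like class had the highest mean only through pool 1, at 82.1, 30.2 and 39.7 CPM (50.7 CPM ± 27.6, SD, n = 3 pools). Valve interstitial-like nuclei held 52.4, 44.4 and 50.0 CPM (48.9 CPM ± 4.11), fibroblast-like nuclei 44.5, 46.1 and 46.4 CPM (45.7 CPM ± 1.03), and smooth muscle-like and mesothelial-like nuclei 34.1 and 32.9 CPM on average. The steps among these 5 classes did not pass the test. Endothelial-like nuclei held 6.62, 6.94 and 7.31 CPM (6.96 CPM ± 0.347, SD, n = 3), and cardiomyocyte-like nuclei 7.01 CPM ± 2.37. The thinned share was 4.45% ± 0.753 in valve interstitial-like nuclei, 0.790% ± 0.330 in endothelial-like nuclei and 1.60% ± 1.67 in macrophage-like nuclei (SD, n = 3). Macrophage-like nuclei, at 17.3 CPM ± 11.7, were called above cardiomyocyte-like ones (log2 1.06, adjusted p = 0.0122, edgeR), though in pool 2 they lay below them (5.04 CPM from 2 UMIs, against 6.90 CPM). Unthinned, the shares were 15.2%, 3.03% and 8.65%.

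Prickle1, a cytoplasmic core polarity protein, was highest in the valve interstitial-like class. These nuclei held 1259, 1313 and 1424 CPM (1332 CPM ± 84.0, SD, n = 3 pools, from 3457, 2010 and 1824 UMIs). Fibroblast-like nuclei held 770.2, 625 and 843 CPM (746 CPM ± 111), and the step of 0.90 on the log2 scale passed the test (adjusted p = 0.00048, edgeR) with no overlap of pools. Smooth muscle-like nuclei stood at 575 CPM ± 73.7, cardiomyocyte-like nuclei at 429 CPM ± 42.0 and endothelial-like nuclei at 297 CPM ± 38.4 (SD, n = 3), and of these steps the one from cardiomyocyte-like to endothelial-like passed (log2 0.85, adjusted p = 0.000247). A Prickle1 UMI was held by 59.2% ± 1.85 of thinned valve interstitial-like nuclei and by 12.9% ± 2.03 of macrophage-like nuclei (SD, n = 3). Unthinned, the shares were 84.4% and 31.2%.

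The membrane partners of Prickle1 in the core complex had a different order. Celsr1, an atypical cadherin of the complex, held 120.3, 126 and 115 CPM in lymphatic endothelial-like nuclei (120.3 CPM ± 5.29, SD, n = 3 pools, from 39, 37 and 16 UMIs). The next class, mesothelial-like, stood at 28.8 CPM ± 8.14 (log2 step 1.90, adjusted p = 5.16e-08, edgeR). Valve interstitial-like nuclei held 5.46, 4.57 and 5.46 CPM (from 15, 7 and 7 UMIs) and fibroblast-like nuclei 1.13, 1.77 and 2.85 CPM (from 3, 3 and 4 UMIs), the lowest level of the 10 classes. The thinned share was 12.7% ± 2.90 in lymphatic endothelial-like nuclei (43.1% unthinned) and 0.454% ± 0.411 in valve interstitial-like nuclei, against 1.36% ± 1.75 in macrophage-like nuclei (SD, n = 3). Unthinned, the last pair was 1.64% and 3.21%. The macrophage-like level rests on 15 UMIs (9, 0 and 6), and it lay above that of fibroblast-like nuclei, so it is no measure of free RNA for Celsr1. For no member was the macrophage-like class the lowest by mean level, so its shares are given for comparison only.

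Vangl1, a membrane protein of the same complex, stood at 74.0, 71.3 and 64.7 CPM in lymphatic endothelial-like nuclei (70.0 CPM ± 4.80, SD, n = 3 pools). Endothelial-like nuclei held 46.6, 38.3 and 45.3 CPM (43.4 CPM ± 4.48), and valve interstitial-like nuclei 27.7, 16.3 and 30.4 CPM (24.8 CPM ± 7.48, SD, n = 3). The lymphatic endothelial-like pools lay above both, though the step down from that class to the endothelial-like class did not pass the test. The only neighbouring step that passed was from cardiomyocyte-like (21.3 CPM) to smooth muscle-like nuclei (16.8 CPM; log2 0.55, adjusted p = 0.0221, edgeR). A Vangl1 UMI was held by 8.61% ± 1.43 of thinned lymphatic endothelial-like, 2.76% ± 0.945 of valve interstitial-like and 0.247% of macrophage-like nuclei (SD, n = 3), and unthinned by 28.2%, 7.93% and 4.47%. Among the classes compared, its paralogue Vangl2 was highest in endothelial-like nuclei at 27.3, 33.3 and 19.7 CPM (26.8 CPM ± 6.78). Valve interstitial-like nuclei held 21.9, 18.9 and 13.3 CPM (18.0 CPM ± 4.36, SD, n = 3). No step between neighbouring classes of Vangl2 passed the test. Its thinned share was 2.63% ± 1.15 in endothelial-like, 2.15% ± 0.645 in valve interstitial-like and 1.21% ± 0.463 in macrophage-like nuclei (SD, n = 3). Unthinned, the last pair was 6.73% and 6.71%.

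The lymphatic endothelial-like class had a summed level of lymphatic markers of 7141 CPM, but also 3428 CPM of general endothelial and 2899 CPM of mesothelial markers, and a median of 1.85% mitochondrial UMIs against 0.786% in valve interstitial-like nuclei. The part of these in the levels of Celsr1, Vangl1 and Dchs1 was not tested.

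**Figure D3:**
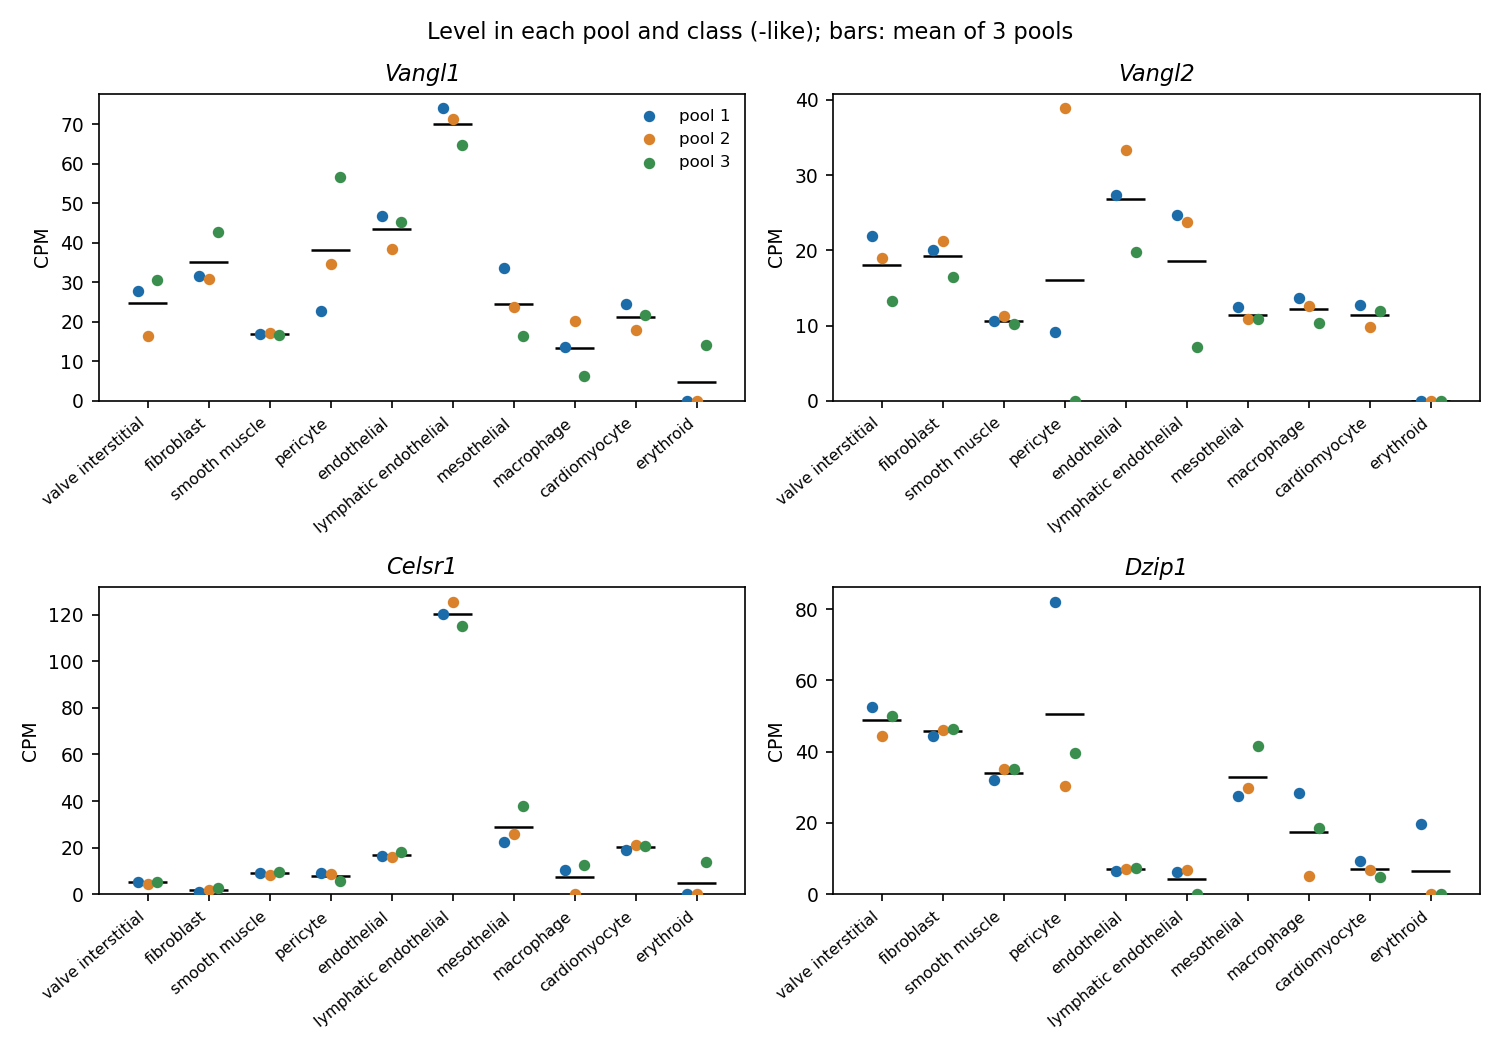
Level in CPM of Vangl1, Vangl2, Celsr1 and Dzip1 in each class of nuclei; each point is 1 of the 3 pools and the horizontal bar is their mean. The lymphatic endothelial-like points of Celsr1 (115 to 126 CPM) stand apart from all other classes, and the endothelial-like points of Dzip1 (6.62 to 7.31 CPM) lie below all valve interstitial-like points (44.4 to 52.4 CPM).

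Ror2, the Wnt5a receptor, was shared by the mesenchymal classes and low in smooth muscle. Valve interstitial-like nuclei held 218.5, 189 and 272 CPM (227 CPM ± 42.4, SD, n = 3 pools) and fibroblast-like nuclei 209, 160.3 and 226 CPM (198 CPM ± 34.1), which overlapped. Pericyte-like nuclei followed at 152 CPM ± 4.24, mesothelial-like at 113 CPM ± 3.54, cardiomyocyte-like at 92.1 CPM ± 14.6, endothelial-like at 65.7 CPM ± 4.31 and smooth muscle-like at 23.0 CPM ± 4.03 (SD, n = 3). The steps that passed the test were cardiomyocyte-like over endothelial-like (log2 0.77, adjusted p = 9.55e-05, edgeR) and macrophage-like (54.1 CPM) over smooth muscle-like (log2 0.97, adjusted p = 0.00278), the latter with overlapping pools. Thinned shares were 17.1% ± 4.52 in valve interstitial-like, 18.2% ± 1.69 in fibroblast-like and 0.900% ± 0.791 in macrophage-like nuclei (SD, n = 3). Unthinned, they were 45.2%, 44.6% and 13.6%.

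Against fibroblast-like nuclei, the other large mesenchymal class, valve interstitial-like nuclei had higher Fat4, Prickle1, Flna, Lix1l and Celsr1, which made 5 of the 10 members higher and 0 lower; of all genes tested 8.21% were higher and 9.6% lower. Fat4 differed by 1.35 (SE 0.18, adjusted p = 1.43e-07, edgeR) and Prickle1 by 0.90 (SE 0.19) on the log2 scale, and both kept their call with any 1 pool left out. Celsr1 differed by 1.59 (SE 0.49, adjusted p = 0.0158, from 10 fibroblast-like UMIs in all), Flna by 0.66 (SE 0.18, adjusted p = 0.00564) and Lix1l by 0.38 (SE 0.12, adjusted p = 0.0169). With 1 pool left out Lix1l lost its call each time (adjusted p of 0.0637 to 0.369, edgeR), Flna without pool 2 (0.0568) and Celsr1 without pool 1 (0.369) or pool 2 (0.05005). Dchs1 did not pass the test (log2 0.19, SE 0.17, adjusted p = 0.535). It was higher in 1 of 3 pools and turned to -0.0010 without pool 1; Ror2 was at 0.24 (SE 0.16, adjusted p = 0.398) and Vangl1 at -0.43 (SE 0.22, adjusted p = 0.219). The median of the 10 members was 0.31, and that of all genes 0.02.

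Against endothelial-like nuclei, named for the cells that line leaflets and vessels, 7 members were higher in valve interstitial-like nuclei and 2 lower, where 17.3% of all genes were higher and 19.9% lower. The largest difference was that of Dzip1 at 2.83 (SE 0.23, adjusted p = 8.39e-14, edgeR), followed by Prickle1 at 2.18 (SE 0.20), Ror2 at 1.76 (SE 0.17), Lix1l at 1.34 (SE 0.11), Flna at 1.10 and Fat4 at 0.75 (SE 0.17). Dchs1 passed narrowly at 0.39 (SE 0.16, adjusted p = 0.0465) and lost its call without pool 1 (adjusted p = 0.316) or pool 2 (0.222). The lower members were Celsr1 at -1.66 (SE 0.28, adjusted p = 4.8e-06) and Vangl1 at -0.81 (SE 0.20, adjusted p = 0.00109). Vangl2 was at -0.53 (SE 0.22, adjusted p = 0.0557) and did not pass.

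Against smooth muscle-like nuclei, named for the contractile cells of the vessel wall, 6 members were higher and 2 lower, with 14.2% and 15.1% of all genes. Ror2 differed most, at 3.12 (SE 0.19, adjusted p = 9.38e-17, edgeR), and Prickle1, Fat4, Dchs1 and Lix1l followed at 1.10, 0.97, 0.95 and 0.66. Vangl2 was higher by 0.69 (SE 0.25, adjusted p = 0.0374) but lost its call without pool 1 (0.525) or pool 2 (0.0679). Flna was lower, at -1.16 (SE 0.18, adjusted p = 8.99e-07), and Celsr1 at -0.91 (SE 0.31, adjusted p = 0.0226), a call that ended with any 1 pool left out (adjusted p of 0.0772 to 0.203). Fat4, Lix1l and Prickle1 were thus higher in valve interstitial-like nuclei in each of these 3 comparisons, which share the valve interstitial-like sums.

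**Figure D4:**
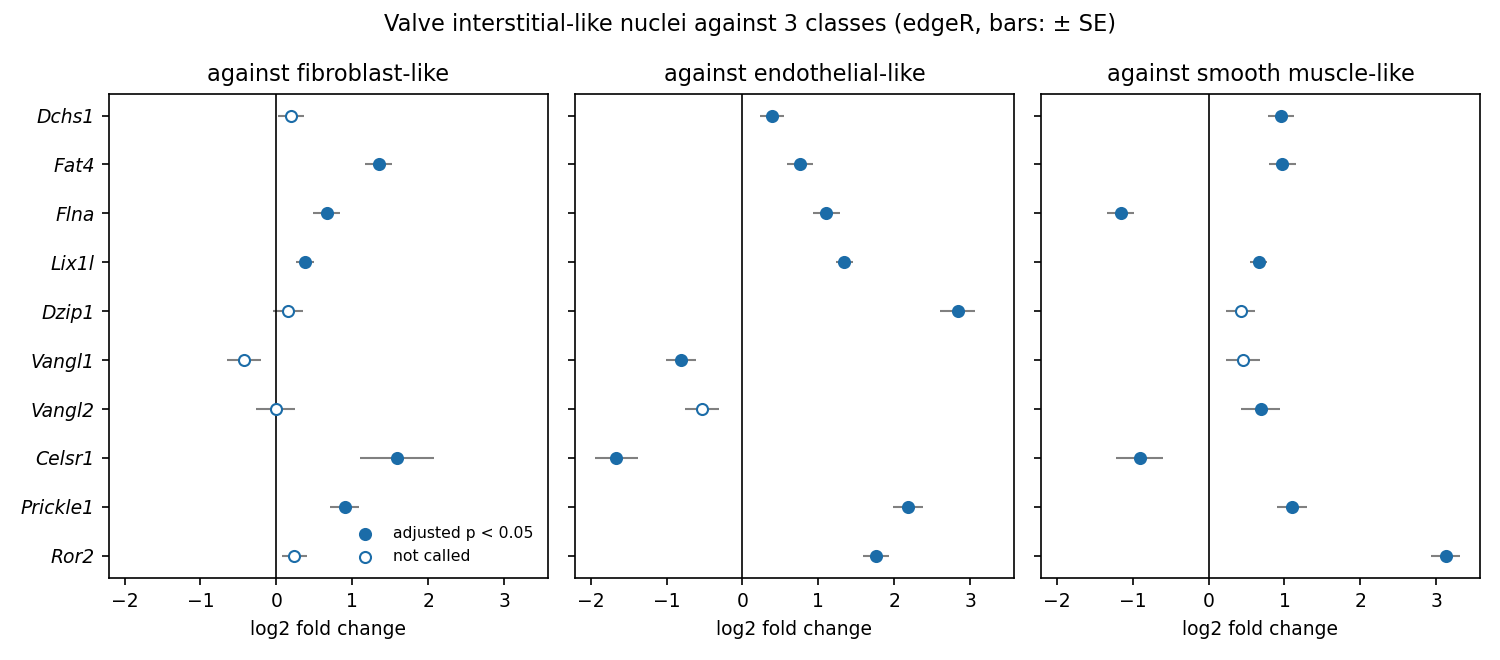
Log2 fold change of each of the 10 genes in valve interstitial-like nuclei against fibroblast-like, endothelial-like and smooth muscle-like nuclei, from edgeR with pool as a block; bars are standard errors and filled points have an adjusted p under 0.05. Fat4, Lix1l and Prickle1 lie to the right of 0 with filled points in all 3 comparisons, whereas Flna lies at 1.10 against endothelial-like and -1.16 against smooth muscle-like nuclei.

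Against the mean of the other 9 classes, 7 members were higher in valve interstitial-like nuclei and 1 (Celsr1) was lower, where 20.7% of all genes were higher and 7.56% lower. The erythroid-like class, in which no UMI of Lix1l, Vangl2 or Ror2 was read in 72 nuclei (an upper limit of 12.1 CPM over the pools, 3 counts), draws this mean down, so the values without it are given, an alternative chosen after seeing the data. They were 2.00 for Prickle1, 1.99 for Fat4, 1.67 for Ror2, 1.39 for Dzip1, 1.29 for Dchs1, 1.21 for Lix1l, 0.46 for Flna and -1.41 for Celsr1 on the log2 scale, and the members called were the same 7 and 1. With the erythroid-like class Lix1l stood at 2.23 and Ror2 at 2.77, values that its 0 counts inflate, and the others lay between -1.37 and 2.14. Flna lost its call without pool 2 (0.42, adjusted p = 0.0754, edgeR) and Celsr1 without pool 3 (-0.49, adjusted p = 1).

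Each other class was compared in the same way with the rest, averaged over log2 levels. Without the erythroid-like class, smooth muscle-like nuclei had higher Flna (log2 1.73), Fat4 (0.87), Prickle1 (0.74) and Lix1l (0.44) in 3 of 3 pools and lower Ror2 (-1.85), Vangl1 (-0.79) and Vangl2 (-0.56). There 8 of 10 members were called, with Dzip1 (0.89) as the eighth, above the plain mean of the other classes in 2 of 3 pools, where 42.4% of all genes were. Endothelial-like nuclei had higher Fat4 (1.14), Dchs1 (0.85), Vangl2 (0.83) and Vangl1 (0.64) and lower Dzip1 (-1.80), Flna (-0.79), Prickle1 (-0.45) and Lix1l (-0.30). Celsr1 was called higher there as well (0.46), yet its CPM lay below the plain mean of the other classes in 3 of 3 pools (16.8 against 25.1 CPM on average), so no direction is read. With 9 members called the background was 37.2%. Fibroblast-like nuclei had higher Ror2 (1.41), Dzip1 (1.22), Dchs1 (1.07), Prickle1 (1.00) and Lix1l (0.79) and lower Celsr1 (-3.19). Here 8 were called with a background of 31.4%, the others being Flna (-0.29) and Fat4 (0.48), which lay above the plain mean in 2 of 3 pools. Some calls of this paragraph were absent with the erythroid-like class included. For smooth muscle these were Ror2 (-0.70, SE 60.7), Vangl1 (-0.61) and Vangl2 (0.33, the opposite sign). The same held for endothelial-like Celsr1 (0.48), Prickle1 (-0.32) and Lix1l (0.74, the opposite sign), and for fibroblast-like Flna (-0.24).

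Lymphatic endothelial-like nuclei had higher Celsr1 (log2 3.59), Dchs1 (1.46) and Vangl1 (1.37) and lower Ror2 (-2.43), Dzip1 (-2.31, from 4 UMIs), Lix1l (-1.25), Prickle1 (-0.77) and Flna (-0.51), again without the erythroid-like class; 8 members were called against 22.3% of all genes. The 3 members that were higher held that call with the erythroid-like class included, where 5 were called in all and 17.9% of genes. In that fit Dzip1 lost its call without pool 1 (log2 -1.48, adjusted p = 1, edgeR), and Prickle1 without pool 1 (adjusted p = 0.343) or pool 3 (0.127). Pericyte-like nuclei had higher Dzip1 (1.37), Ror2 (0.97) and Flna (0.95) and lower Dchs1 (-1.98, from 4 UMIs) and Prickle1 (-1.26), with 10.8% of genes called. With the erythroid-like class included, Dchs1 lost its call with any 1 pool left out (adjusted p of 0.0620 to 1, edgeR), and Dzip1 (0.139) and Prickle1 (0.182) lost theirs without pool 1. At 500 UMIs per nucleus, where this class took in another cluster, Dchs1 stood at 0.0053 and Prickle1 at 1.06. In macrophage-like nuclei 5 members were called, with 26.3% of genes, and the lowest value was that of Vangl1 at -1.46.

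In cardiomyocyte-like nuclei, again without the erythroid-like class, Fat4 (-2.56), Dchs1 (-1.99), Dzip1 (-1.35), Flna (-0.97) and Lix1l (-0.42) were lower, where 57.8% of all genes were called. Celsr1 (1.13), Ror2 (0.58) and Prickle1 (0.52) were called higher there against the mean of log2 levels, yet in 3 of 3 pools their CPM lay below the plain mean of the other classes, so no direction is read. Mesothelial-like nuclei had 7 members called with a background of 56.7%, among them Celsr1 (1.41, above the plain mean in 2 of 3 pools) as the highest and Prickle1 (-1.17) as the lowest. With the erythroid-like class included, the members called were 7 in cardiomyocyte-like (43.8% of genes), 6 in endothelial-like (30.1%), 7 in fibroblast-like (26.1%), 2 in macrophage-like (23.1%), 6 in mesothelial-like (44.6%), 5 in pericyte-like (9.62%) and 5 in smooth muscle-like nuclei (34.2%), and 2 in the erythroid-like class itself (8.43%). In that fit Lix1l turned to 0.61 in cardiomyocyte-like nuclei and was not called.

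The valve interstitial-like class itself held 2 clusters, which were found without the members. The first, led by Ctnna2 and Abi3bp, had 944 nuclei at a median of 3232 UMIs, and the second, led by Rmst, Rnf43 and Adamts19, had 481 nuclei at a median of 4229 UMIs. Dchs1 was lower in the first, at 42.5, 34.9 and 24.0 CPM against 61.9, 88.8 and 37.7 CPM (log2 -0.86, SE 0.20, adjusted p = 0.00191, edgeR), and in each pool the Rmst cluster was the higher. Fat4 moved the same way, at 406, 348 and 349 CPM against 579, 533 and 551 CPM (log2 -0.62, SE 0.16, adjusted p = 0.00681), with no overlap. Prickle1 stood at 1159 CPM ± 59.9 against 1589 CPM ± 199 (SD, n = 3; log2 -0.47, adjusted p = 0.0486), and Flna went the other way at 484 CPM ± 87.3 against 336 CPM ± 49.3 (log2 0.50, adjusted p = 0.0236).

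These 4 calls among 10 members compare with 8.47% of all genes called between the clusters. With 1 pool left out 0 or 1 member passed: Dchs1 lost its call without pool 2 (log2 -0.59, adjusted p = 0.207), and Fat4 (adjusted p of 0.0554 to 0.0645, edgeR), Flna (0.0836 to 0.285) and Prickle1 (0.106 to 0.343) lost theirs each time. The clusters also differed in fibroblast markers, which summed to 3341 CPM (2207 to 4307 over pools) in the Ctnna2 cluster and 6341 CPM (3861 to 8715) in the Rmst cluster, and in valve interstitial markers, at 9070 and 11980 CPM; their part in these differences was not tested. Ror2 did not pass, at 200.4 CPM ± 28.9 and 265 CPM ± 59.7 (SD, n = 3).

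The endothelial-like class had 7 clusters, of which 6 held at least 20 nuclei in each pool and were compared. Fat4 was highest in the cluster led by Grid1, Col23a1 and Emcn (725 nuclei) at 479.7, 461 and 500.3 CPM, against 218 CPM ± 16.3 (SD, n = 3) over the other endothelial-like clusters (log2 1.21, SE 0.12, adjusted p = 5.31e-13, edgeR). This level lay near that of valve interstitial-like nuclei. In this comparison 22.9% of all genes were called, and Celsr1, Flna and Vangl1 were lower there. The cluster led by Cytl1 and Rtl4 (757 nuclei) was the opposite, with Fat4 at 162 CPM against 282 CPM (log2 -0.66, adjusted p = 0.000267). Its Ror2 stood at 126 CPM ± 13.4 against 41.3 CPM (log2 1.75, adjusted p = 1.5e-12) and its Prickle1 at 438 CPM ± 23.2 against 240.6 CPM (log2 0.97, adjusted p = 1.93e-09), so 3 members were called where 16.7% of all genes were.

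The smaller endothelial-like clusters differed in other members. The cluster led by Dlgap2 and Cntnap5a (253 nuclei; 18.4% of genes called) held Dzip1 at 21.5 CPM ± 9.45 against 5.09 CPM (log2 2.05, adjusted p = 0.000184, edgeR) and Vangl2 at 41.6 CPM ± 10.4 against 24.6 CPM (adjusted p = 0.0388). Ror2 was higher there (log2 0.83) and Prickle1 lower (log2 -0.71). The cluster led by Mannr, Ptchd1, Sema3g and Gja5 (242 nuclei; 16.4%) had Vangl1 at 61.8 CPM ± 13.4 (SD, n = 3; log2 0.72, adjusted p = 0.00579), higher Flna and lower Ror2. The cluster led by Pcdh17 and Aplnr (240 nuclei; 23.9%) had Dchs1 at 50.6 CPM ± 11.2 against 32.5 CPM (log2 0.65, adjusted p = 0.00899), higher Flna, and lower Vangl2 and Ror2. In the cluster led by Kcnc2, Fam155a and Wnt9b (409 nuclei; 19.6%) Ror2 alone was called, at -0.67 (adjusted p = 0.0458). Some of these calls depended on 1 pool: without pool 1 Dchs1 in the Pcdh17 cluster stood at 0.46 (adjusted p = 0.317, edgeR) and Vangl1 in the Mannr cluster at 0.56 (adjusted p = 0.260). Vangl2 lost its call in both clusters with any 1 pool left out. Vangl1 in the Grid1 cluster lost its call with any 1 pool left out (adjusted p of 0.128 to 0.259), and Celsr1 and Flna there without pool 1 (0.124 and 0.0715). Ror2 lost its call in the Kcnc2 cluster without pool 1 (0.283) or pool 2 (0.386), in the Dlgap2 cluster without pool 2 (0.199) and in the Mannr cluster without pool 2 (0.198) or pool 3 (0.0752). Flna lost its call in the Mannr cluster without pool 2 (0.0780) or pool 3 (0.104) and in the Pcdh17 cluster without pool 1 (0.130).

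**Figure D5:**
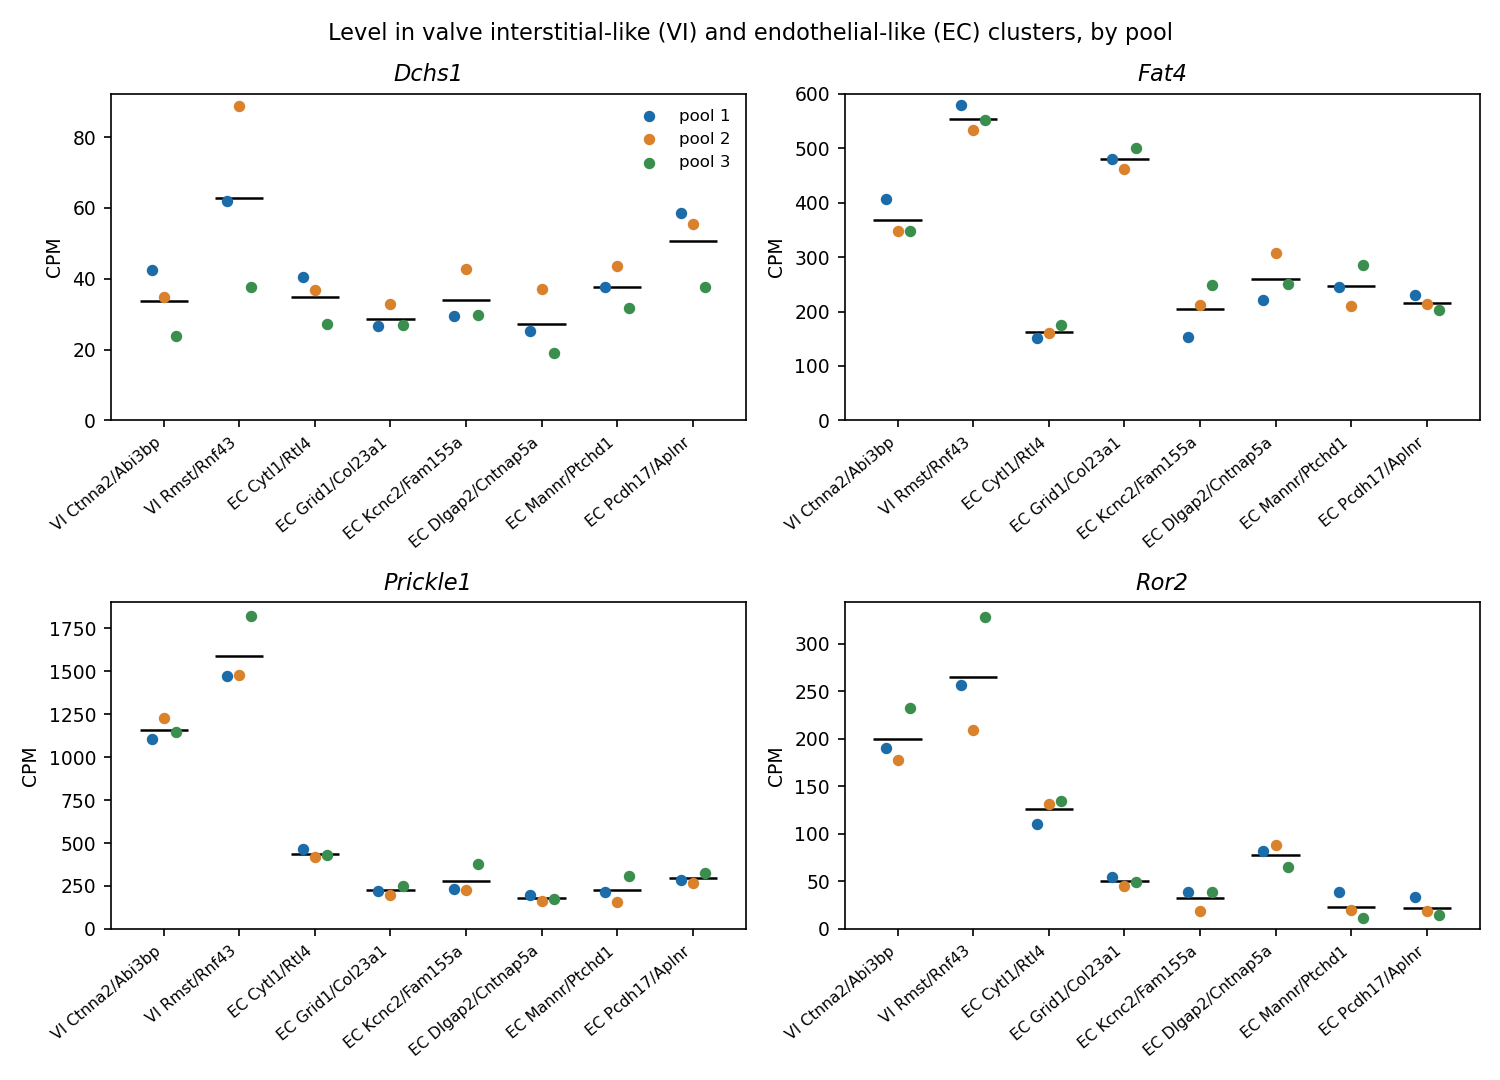
Level in CPM of Dchs1, Fat4, Prickle1 and Ror2 in the 2 valve interstitial-like and 6 endothelial-like clusters, named by leading genes; each point is 1 of the 3 pools and the bar is their mean. The 3 points of Fat4 in the endothelial-like cluster led by Grid1 (461 to 500.3 CPM) lie above those of the other endothelial-like clusters (152 to 307 CPM) and between those of the valve interstitial-like clusters.

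The pools differed in the same way in several classes. In each of the 6 largest classes Dchs1 was highest in pool 2 and lowest in pool 3, Flna was lowest in pool 3, Prickle1 was highest in pool 3 and Lix1l was lowest in pool 2. Vangl2 was lowest in pool 3 in 5 of the 6 classes and Celsr1 highest there in 5. Pool 2 had the largest share of deposited nuclei over 5% mitochondrial UMIs and pool 3 the smallest, and pool 3 had the lowest median depth among analysed nuclei. In the nuclei left out for mitochondrial UMIs, Dchs1 stood at 40.4 CPM against 23.2 CPM in the nuclei analysed, whereas Prickle1 stood at 259 against 517 CPM and Fat4 at 127 against 171 CPM. The classes of nuclei left out are not known, and the part of nucleus quality in the order of pools was not tested.

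The wider pathways around the members were read from 8 lists in valve interstitial-like nuclei against the mean of the other classes, where 20.7% of all genes tested were higher and 7.56% lower (18.7% and 15.2% without the erythroid-like class). The CPM given for the other classes are plain means over classes, whereas the log2 values average the log2 levels of the classes. The log2 values are therefore not those of the ratio of the CPM. Of the other core polarity genes and receptors, 12 of 19 were higher and 1 was lower, with a median of 0.75 on the log2 scale against 0.26 over all genes (0.48 against 0.01 without the erythroid-like class). The ligand Wnt5a stood at 100.3 CPM ± 2.55 against 31.0 CPM ± 6.59 (SD, n = 3 pools; log2 2.27 without the erythroid-like class), Wnt11 at 16.6 CPM against 2.65 CPM (log2 3.54) and the receptor-like kinase Ptk7 at 128 CPM against 51.7 CPM (log2 1.30). The receptor Fzd6 was lower, at 22.7 CPM against 83.0 CPM (log2 -1.29), a call that ended without pool 1 with that class included. The 3 genes that were higher were also called higher against fibroblast-like nuclei. There 5 of the 19 were higher and 0 lower (1 lower without the erythroid-like class), with 8.21% and 9.6% of all genes.

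Among the relatives and partners of Fat4 and Dchs1, 2 of 6 were higher and 0 lower. The protocadherin Fat1 stood at 293 CPM ± 8.97 against 152.5 CPM ± 18.0 (SD, n = 3; log2 1.10 without the erythroid-like class) and Lix1, the paralogue of Lix1l, at 11.1 CPM against 3.39 CPM (log2 1.75). Against fibroblast-like nuclei 0 of these 6 were higher and 2 lower, with 8.21% and 9.6% of all genes. The lower genes were Dchs2 at 7.86 CPM against 29.4 CPM (log2 -1.78, adjusted p = 3.02e-05, edgeR) and Fat3 at 41.7 CPM against 101.3 CPM (log2 -1.18), both atypical cadherins of the same family. These 2 were named after their values were seen.

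Of the 20 Hippo pathway genes 9 were higher and 1 lower, and 7 and 2 without the erythroid-like class. The transcription factor Tead2 stood at 68.5 CPM against 38.3 CPM (log2 0.80 without that class) and the scaffold Amot at 23.1 CPM against 12.1 CPM (log2 0.88), whereas Amotl2 was lower, at 23.1 CPM against 38.0 CPM (log2 -0.71). Nf2, the merlin gene, was called with that class (log2 1.31) but not without it (log2 0.20, adjusted p = 0.190, edgeR). Of 14 effectors of planar polarity 3 were higher and 0 lower, which became 2 higher and 3 lower without the erythroid-like class. Daam2, a formin, stood at 82.1 CPM against 48.1 CPM (log2 1.40 without that class) and the ubiquitin ligase Smurf2 at 564 CPM against 307 CPM (log2 0.77).

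Of 16 genes of the primary cilium and its hedgehog signal 9 were higher and 1 lower. Against fibroblast-like nuclei 0 were higher and 2 lower, where 8.21% of all genes were higher and 9.6% lower. Fibroblast-like nuclei had 7 higher and 0 lower against the mean of the other classes. There 2835 of all 14255 genes were higher and 891 lower. Gli3 stood at 496 CPM ± 54.8 against 171 CPM ± 14.2 (SD, n = 3; log2 1.91 without the erythroid-like class), Gli2 at 115 CPM against 60.7 CPM (log2 1.29) and Dzip1l, the paralogue of Dzip1, at 43.2 CPM against 33.9 CPM (log2 0.82). Ptch1 was lower, at 57.3 CPM against 89.6 CPM (log2 -0.74). Of 9 filamins and filamin partners 2 were higher and 1 lower. The serotonin receptor Htr2a stood at 53.3 CPM against 6.44 CPM (log2 3.36) and the transglutaminase Tgm2 at 11.2 CPM against 84.5 CPM (log2 -2.18). Of 14 other genes near prolapse loci or of syndromic prolapse 8 were higher and 3 lower, among them Ltbp2 at 211 CPM ± 25.2 against 45.5 CPM ± 10.8 (log2 2.44), Lmcd1 at 176 CPM against 89.4 CPM (log2 1.38) and Col5a1 at 378.5 CPM against 176 CPM (log2 1.25). The lower genes named were Tns1 at 239 CPM against 344 CPM (log2 -0.53) and the heart muscle splicing factor Rbm20 (log2 -1.97). Rbm20 stood at 23.2 CPM against a plain mean of 545 CPM over the other classes.

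The apical-basal polarity genes, a different polarity system, had 3 of 14 higher and 1 lower. Lin7a stood at 29.1 CPM against 10.6 CPM (log2 3.32 without the erythroid-like class), Dlg5 at 70.3 CPM against 45.3 CPM (log2 0.50), Prkci at 48.4 CPM against 33.5 CPM (log2 0.41) and Llgl2 at 2.42 CPM against 6.67 CPM (log2 -1.36). With 1 pool left out and the erythroid-like class included, Amotl2, Tns1 and Llgl2 lost their call without pool 1 or pool 3, Fzd6, Nf2 and Ptch1 without pool 1, and Tgm2 and Rbm20 without pool 3.

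Genes whose levels over the 30 sums of class and pool ran most like those of a member are given as a description, since the sums of a pool share a library. For Fat4 these were Rai14 (Pearson's r = 0.96 of log2(CPM + 1)), Fgfr1 (0.94), Golim4 (0.94), Adamts10 (0.93) and Sncaip (0.92), and for Dchs1 Ikbke (0.91), Zfp423 (0.91), Pygo2 (0.90), Cdr2l (0.89) and Mex3a (0.89). Lix1l ran most like Dnajc25, Snx7 and Zfp948 (0.97 to 0.98), Prickle1 like Gm41949, Me1 and Fbn2 (0.94 to 0.95), and Ror2 like Spry2, Hhat and Gm26760 (0.93 to 0.94). For Flna they were Cnn2, Tgfb1i1 and Fam118a (0.92 to 0.94), the first a calponin. For Celsr1 they were Flt4, the receptor of lymphatic growth factors, Tgm2 and F11r (0.82 to 0.84). Dzip1 ran most like Rtl1, Egfr and Pdzd4, Vangl1 like Zfp618, Mtmr12 and Zfp467, and Vangl2 like Poglut2, Mycbp and Med31. These choices rest in part on the erythroid-like sums, where Lix1l, Vangl2 and Ror2 had 0 UMIs in 3 of 3 pools. Over the 27 sums without that class, an alternative added after the data were seen, r fell to between 0.75 and 0.84 for the genes named for Lix1l, to between 0.76 and 0.78 for those of Ror2 and to between 0.59 and 0.70 for those of Vangl1. Of the genes named, 2 of 5 for Fat4, 1 of 5 for Dchs1, 2 of 3 for Vangl2, 1 of 3 each for Flna (Cnn2) and Celsr1 (Flt4), and 0 of 3 each for Lix1l, Dzip1, Vangl1, Prickle1 and Ror2 were again among the same number of most alike genes. By Spearman rank correlation over the 30 sums this held for 0 of 5 for Fat4, 1 of 5 for Dchs1, 2 of 3 each for Flna and Celsr1, 1 of 3 for Prickle1, and 0 of 3 each for Lix1l, Dzip1, Vangl1, Vangl2 and Ror2. Among the members, Dchs1 and Fat4 correlated at 0.75 over the 30 sums and 0.67 without the erythroid-like class, Lix1l and Ror2 at 0.90 and 0.58, Celsr1 and Vangl1 at 0.59 and 0.35, and Celsr1 and Dzip1 at -0.22 and -0.53.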

How the data were processed

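The 3 deposited matrices of mouse aortic valve structures hold raw UMI counts of genes in nuclei. Per the file headers, Cell Ranger 7.1.0 made them. The submitters' processing notes name Cell Ranger 7.0.1 and 7.1.0 and the build GRCm39; the annotation and whether intronic reads were counted are not given in the sources used here. The chromatin part of the assay was not analysed here.

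Nuclei with at least 1000 UMIs and at most 5% mitochondrial UMIs were kept (7071, 3253 and 3749 in pools 1, 2 and 3). Scrublet's automatic threshold marked 0, 0 and 1 nuclei, so the highest scores were left out at 0.8% per 1000 deposited nuclei. Counts, scaled to a sum of 10000 in each nucleus, were clustered with scanpy 1.11.5 and leidenalg 0.10.2 under Python 3.11.15 (2000 variable genes, 30 components, 15 neighbours, resolution 1) without the members, the listed genes and the cell cycle, sex-linked, mitochondrial, EGFP and Scx genes. A cluster was named by at least 3 markers of 1 of 18 lists found in 10% or more of its nuclei and 2-fold or more above the other nuclei (5 CPM added), and its 10 leading genes were checked against the name. The cluster led by Kcnc2, Fam155a and Wnt9b, whose best list was endocardial-like, was joined with the endothelial-like class. Names were rebuilt here and may differ from the study's. Melanocyte-like and adipocyte-like nuclei had under 20 in a pool and entered no comparison.

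Counts were summed per pool and class (30 sums, 10 classes, 14255 genes) or cluster (69 sums, 23 clusters, 12806 genes) and tested with edgeR 4.0.16 (TMM, filterByExpr, quasi-likelihood test, Benjamini-Hochberg, threshold 0.05) under R 4.3.3. Pool was a block, since the classes in a pool share 1 library: that, and not the replicate numbers, pairs the sums. The labels do not say how the pools relate to litters, so p-values measure the spread between these pools only. Shares were taken after thinning to 1000 UMIs, with 95% Wilson intervals (scipy 1.17.1). With 3 values against 3, an exact permutation test cannot go below 0.1. Alternatives were DESeq2 1.42.0, its size factors, no filter, no block, other limits of UMIs, mitochondrial share, doublets and resolution, and each pool left out. The tests were also run on simulated data, but the outcome is not given here, so no support is drawn from it.

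All 10 members are named. Of each of the 8 lists (115 genes), up to 3 rises and 2 falls past the threshold with the same direction in 3 pools are named (1 such gene is not reported here), and for each member the genes of highest Pearson correlation with a mean of at least 10 CPM (5 for Dchs1 and Fat4, 3 for the others). Members and lists were chosen with earlier results of these data known. The 250-base windows are from RefSeq, where 7 of the 10 members matched an entry.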

Additional observations from a re-analysis of the deposited data

Results flagged for a closer look

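Vangl2 had a mean of 31.4 CPM in melanocyte-like nuclei, which entered no comparison because pool 3 held under 20 of them (39, 20 and 14 nuclei in pools 1, 2 and 3). This lay above the highest mean of the classes compared, 26.8 CPM in endothelial-like nuclei. The values by pool were 12.4, 35.4 and 46.4 CPM, from 3, 3 and 2 UMIs, so the level rests on 8 UMIs in all.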

How the results depend on the processing

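The counts of members called were recomputed under each alternative. Counts that moved by over 1.5 times were as follows, some with the genes called out of those tested. For the counts without it, a move of the members is not told apart from a move of all genes. With DESeq2 the erythroid-like class had 0 members called in place of 2, the lymphatic endothelial-like class 8 in place of 5 and the endothelial-like Kcnc2 cluster 2 in place of 1; with DESeq2's size factors in edgeR the erythroid-like count was 0. Without the replicate block the macrophage-like count was 1 in place of 2, valve interstitial-like against fibroblast-like 3 in place of 5, the valve interstitial-like clusters 1 in place of 4, the Kcnc2 cluster 0 and the Mannr cluster 1 in place of 3. At most 2% mitochondrial UMIs gave 2 in place of 5 for pericyte-like (1267 of 13825 genes called, against 1372 of 14255), 9 in place of 5 for smooth muscle-like (5044 genes, against 4878), and 2 in place of 4 for the valve interstitial-like clusters and for the Dlgap2 and Pcdh17 clusters; the lymphatic endothelial-like and erythroid-like classes then had under 20 nuclei in a pool and gave no value. With no filter on low counts the valve interstitial-like clusters and the Pcdh17 cluster each had 2. At 500 UMIs per nucleus the erythroid-like count was 1 and that of valve interstitial-like against fibroblast-like 3.

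Of the settings chosen after seeing the data, leaving out the erythroid-like class gave 8 for lymphatic endothelial-like, 5 for macrophage-like and 8 for smooth muscle-like (3262, 3851 and 6212 of 14640 genes, against 2553, 3286 and 4878 of 14255), leaving out the cardiomyocyte-like cluster led by Mb gave 1 for macrophage-like, and the 6 largest classes alone gave 10 for endothelial-like, where 7112 of 15125 genes were called in place of 4292 of 14255, and 8 for smooth muscle-like, where 7707 were in place of 4878. With 1 pool left out the counts ran from 0 to 2 for erythroid-like, 3 to 5 for lymphatic endothelial-like, 0 to 2 for macrophage-like, 2 to 4 for pericyte-like, 2 to 4 for valve interstitial-like against fibroblast-like, 0 to 1 for the valve interstitial-like clusters, and for endothelial-like clusters 1 to 3 (Grid1), 0 to 2 (Kcnc2), 2 to 3 (Dlgap2), 1 to 2 (Mannr) and 1 to 3 (Pcdh17). The counts of valve interstitial-like against the mean (7 to 8), against endothelial-like (8 to 10) and against smooth muscle-like nuclei (6 to 9) stayed within 1.5 times of 8, 9 and 8 in every setting.

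Of 131 single values, 4 changed sign: Dchs1 in macrophage-like nuclei against the mean without pool 1 (-1.16 to 0.051 with 1 pool left out), Dchs1 in valve interstitial-like against fibroblast-like nuclei without pool 1 (-0.0010 to 0.31), and Dchs1 (0.0053) and Prickle1 (1.06) in pericyte-like nuclei against the mean at 500 UMIs, where that class took in another cluster. The cause of these changes was not tested. Outside this tally, Lix1l in endothelial-like and cardiomyocyte-like nuclei and Vangl2 in smooth muscle-like nuclei also changed sign when the erythroid-like class was left out. Depth limits the low genes: Celsr1 had 29 UMIs in valve interstitial-like and 10 in fibroblast-like nuclei, and Dchs1 had 4 in pericyte-like nuclei.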
